A study of Mus musculus with 17 samples.

Results

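The genes described here are 9 genes known from tendon, ligament and periosteum, namely Scx, Mkx, Tnmd, Postn, Tnc, Cilp, Thbs2, Thbs4 and Angptl7. They were taken by name, with no cutoff on their values, from the 55335 genes counted in each of 17 bulk RNA-seq libraries of mouse bone cells. The list was chosen with earlier results of these data known. Each symbol matched a single Ensembl identifier, and all 9 genes had counts in all 17 libraries, the smallest being 336 counts of Mkx in an OPC library.

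The libraries were made from osteoprogenitor cells (OPCs) and skeletal stromal/stem cells (SSCs) sorted from the bone fraction of mice with the genotypes Cxcr4+/+ (WT), Cxcr4+/1013 (+/1013) and Cxcr41013/1013 (1013/1013). The 1013 allele is a knock-in of a gain-of-function mutation found in patients with WHIM syndrome. It shortens the tail of the chemokine receptor Cxcr4 and is carried by every cell of the animal, so a difference between genotypes need not begin in the sorted cells. The untreated mice were described as female littermates of 8 to 12 weeks. OPCs were gated as negative for CD45, TER119, CD31 and Sca-1 and positive for CD51, with or without PDGFRα, whereas SSCs were positive for Sca-1, CD51 and PDGFRα. A library held 3000 sorted cells pooled from 3 mice. There were 3 libraries in each of the 6 groups, except for 2 in 1013/1013 SSCs, and p-values therefore measured the spread between such pools.

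Between 64099849 and 92683497 counts fell on genes in an OPC library and between 44217695 and 50509592 in an SSC library. Levels are counts scaled to library size (CPM) with TMM factors of the 17 libraries, and a count of 3, taken as the limit of detection, stood for at most 0.0628 CPM (counting error only). The sort markers Ly6a (Sca-1), Pdgfra and Itgav (CD51) summed to 804 to 1942 CPM in SSCs and to 127 to 205 CPM in OPCs. Itgav alone overlapped, at 49.5 to 59.7 CPM in WT SSCs and 28.0 to 66.8 CPM in WT OPCs. Of the 8 osteoblast markers, none was at 0 in any group, and their sum was 7861 to 29892 CPM in OPCs and 2167 to 6042 CPM in SSCs. OPC libraries also held 12679 to 92203 CPM of 8 chondrocyte markers, among them Col2a1 and Acan. Although CD45+ cells were gated out, 10 leukocyte markers reached 19862 CPM in WT OPC replicate 3, 13834 CPM in 1013/1013 OPC replicate 2 and 8870 CPM in WT SSC replicate 3, against at most 931 CPM in the other libraries. 1013/1013 SSC replicate 1 had the fewest genes with a count, 15748.

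Tendons join muscle to bone through parallel collagen fibres laid down by tenocytes, and the periosteum is the fibrous sheath of bone whose inner layer holds skeletal progenitors. Scleraxis (Scx) and Mohawk (Mkx) are transcription factors of the tendon lineage, and tenomodulin (Tnmd) is a membrane glycoprotein of mature tenocytes that depends on Scx. Periostin (Postn), tenascin C (Tnc), cartilage intermediate layer protein (Cilp) and the thrombospondins Thbs2 and Thbs4 are secreted proteins that sit in the matrix or bind to it, and Angptl7 is a secreted angiopoietin-like protein.

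Scx is a basic helix-loop-helix factor, a family that binds E-boxes (CANNTG), so the 250 bases before the RefSeq start of transcription (build GRCm38.p6) were searched for this motif. The 4 genes below are shown because the largest differences between cell types or genotypes were measured for them, and capitals mark the E-boxes on the strand of the gene. Angptl7 and Cilp had higher levels in SSCs than in OPCs, Tnc had lower levels there, and Postn and Tnc had the lowest levels in 1013/1013 SSCs. The windows are chr4:148500463-148500712 (minus strand), chr9:65264930-65265179 (plus), chr4:64047016-64047265 (minus) and chr3:54360857-54361106 (plus).

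Angptl7: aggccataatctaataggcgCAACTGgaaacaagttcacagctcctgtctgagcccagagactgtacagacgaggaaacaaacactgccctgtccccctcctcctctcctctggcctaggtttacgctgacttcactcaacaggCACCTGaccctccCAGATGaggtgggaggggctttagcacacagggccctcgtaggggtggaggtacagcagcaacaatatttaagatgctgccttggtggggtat
Cilp: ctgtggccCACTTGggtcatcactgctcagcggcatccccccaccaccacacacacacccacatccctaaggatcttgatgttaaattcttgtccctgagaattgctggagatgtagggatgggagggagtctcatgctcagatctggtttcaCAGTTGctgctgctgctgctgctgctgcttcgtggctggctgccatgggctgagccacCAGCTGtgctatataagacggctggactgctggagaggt
Tnc: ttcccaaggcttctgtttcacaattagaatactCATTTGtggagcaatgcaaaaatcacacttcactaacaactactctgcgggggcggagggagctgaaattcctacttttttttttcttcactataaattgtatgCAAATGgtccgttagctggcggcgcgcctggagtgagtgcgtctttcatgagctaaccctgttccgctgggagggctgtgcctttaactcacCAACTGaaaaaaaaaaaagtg
Postn: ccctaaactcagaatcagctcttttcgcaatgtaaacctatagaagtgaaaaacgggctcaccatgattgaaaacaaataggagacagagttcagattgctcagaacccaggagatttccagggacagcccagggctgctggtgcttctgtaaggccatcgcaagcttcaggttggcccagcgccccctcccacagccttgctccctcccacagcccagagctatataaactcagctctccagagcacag

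The windows of Angptl7, Cilp and Tnc held 3 E-boxes each and that of Postn none. Of 32851 windows of the same length before RefSeq starts, 66.2% held at least 1 E-box on either strand. The E-box CAGATG was found once, before Angptl7, and in 14.4% of all windows. TATAAA was found before Tnc and Postn and in 12.4% of all windows. CAGAC, the core of a motif bound by SMAD factors, which can overlap the other motifs, was found 2 times before Angptl7 and in 42.2% of all windows. These matches describe the sequence only. Promoters of 7 of the 9 genes were in the table used, and those of Scx and Mkx were not analysed here.

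Within a group, levels of different genes were compared as CPM per kilobase of exon. In WT OPCs, Cilp had the highest mean, 317 ± 157 CPM per kilobase (SD, n = 3), followed by Thbs4 (247 ± 228) and Tnc (95.3 ± 39.3). The ranges of neighbours in the WT OPC order overlapped down to Postn (70.9 ± 21.5), which lay above Thbs2 (40.2 ± 9.07) in all 3 libraries. Both transcription factors were at the bottom, Scx at 10.9 ± 2.43 and Mkx at 2.95 ± 0.757 CPM per kilobase, and these 2 ranges did not overlap.

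In WT SSCs, the order began with Cilp (1677 ± 638 CPM per kilobase, n = 3), Angptl7 (1002 ± 465) and Thbs4 (697 ± 255), whose ranges overlapped between neighbours. A step without overlap led from Thbs4 to Thbs2 (109.6 ± 25.2). Angptl7 had thus the second highest mean of the 9 genes per kilobase in WT SSCs and, with 27.9 ± 36.2, the third lowest in WT OPCs. Scx (17.7 ± 5.70) and Mkx (5.36 ± 0.515) were again lowest. In 1013/1013 SSCs (n = 2), the order ended with Postn (19.1 ± 2.68), Scx (17.4 ± 8.44), Tnc (8.12 ± 7.25) and Mkx (4.39 ± 2.80), each overlapping the next, and Tnc lay below Scx in the order, as it did in +/1013 SSCs.

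**Figure D1:**
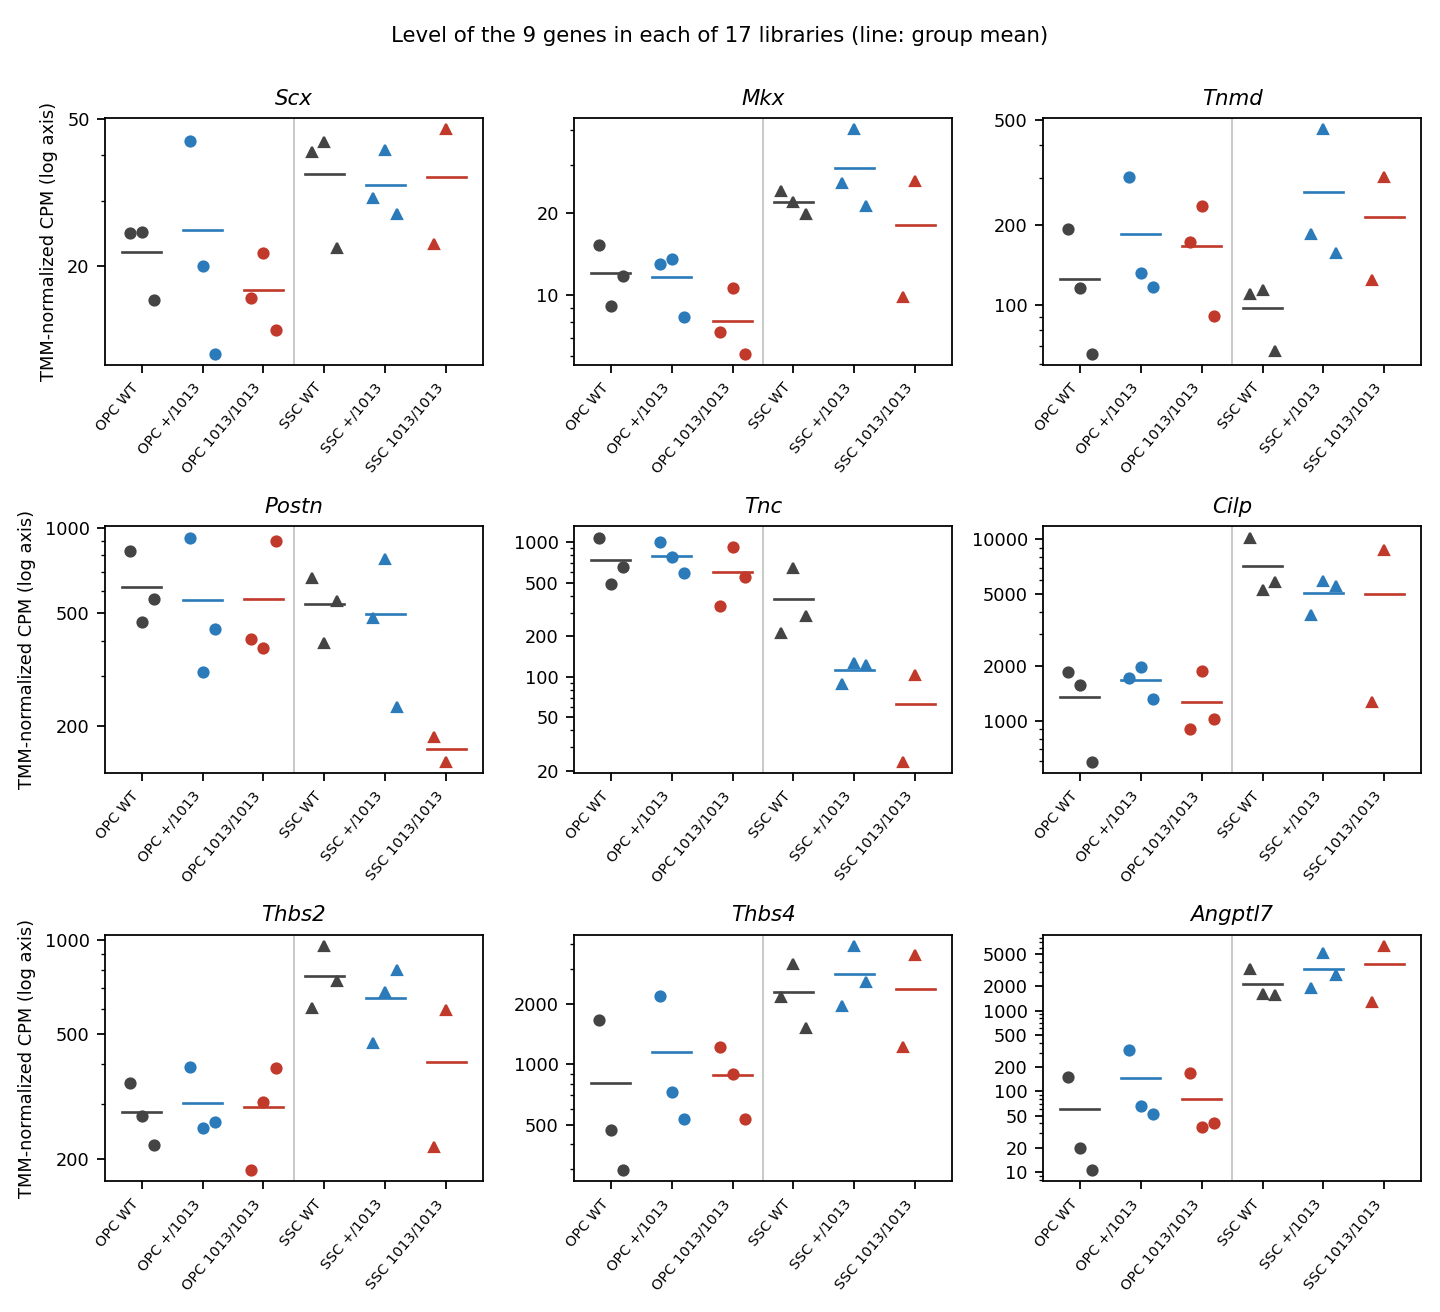
TMM-normalized CPM (log axis) of each gene in each of 17 libraries, by group. Circles are OPC and triangles SSC libraries, colours are genotypes and horizontal lines are group means (n = 3, or 2 for SSC 1013/1013). Angptl7 lay between 10.5 and 320.2 CPM in OPCs and between 1294 and 6346 CPM in SSCs, and Tnc and Postn reached their lowest levels in 1013/1013 SSCs.

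The first comparison asked how SSCs differed from OPCs in each genotype. A gene was called at an adjusted p under 0.05 (edgeR's quasi-likelihood test, Benjamini-Hochberg over all genes tested) and at least 1.5-fold change, and log2 fold changes are given ± SE. In WT, Cilp, Thbs2 and Angptl7 were higher in SSCs and no member was lower, so 3 of 9 were called, against 11.4% of the 20238 genes tested. In +/1013, Mkx and Angptl7 were higher and Tnc was lower (3 of 9, against 12.5%). In 1013/1013, Angptl7 was higher and Tnc was lower (2 of 9, against 13.1%). Over the 9 genes, the log2 fold changes had a median of 0.86 in WT, 1.11 in +/1013 and 1.02 in 1013/1013, against 0.17, 0 and -0.20 over all genes tested. Libraries did not overlap between SSCs and OPCs for 4 of 9 genes in WT, 5 of 9 in +/1013 and 4 of 9 in 1013/1013, against 37.9%, 35.1% and 40.2% of all genes in either direction. DESeq2's Wald test called 3, 5 and 5 of the 9 genes, against 18.5%, 20.7% and 22.8% of all genes. OPC and SSC libraries were also apart in depth and in the marker sums given above, and the part of these in the differences between cell types was not tested.

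Angptl7 (ENSMUSG00000028989, chr4:148495183-148500460, minus strand), a secreted factor known from tendon, cornea and trabecular meshwork, had 150.0, 19.8 and 10.5 CPM in the WT OPC replicates and 3317, 1619 and 1545 CPM in WT SSCs. The +/1013 libraries had 320.2, 65.8 and 52.7 CPM in OPCs and 1903, 5205 and 2731 CPM in SSCs. Those of 1013/1013 had 167, 35.6 and 40.4 CPM in OPCs and 1294 and 6346 CPM in SSCs. All 8 SSC libraries lay above all 9 OPC libraries, and the OPC libraries spanned 10.5 to 320.2 CPM. The fitted difference between SSCs and OPCs was 35.9-fold in WT (log2 fold change 5.17 ± 1.18, adjusted p = 0.0125, edgeR), 22.4-fold in +/1013 (4.49 ± 1.15, adjusted p = 0.0204) and 47.2-fold in 1013/1013 (5.56 ± 1.24, adjusted p = 0.0102). Without WT OPC replicate 2 the WT call was lost (log2 fold change 4.77, adjusted p = 0.0540), and without +/1013 OPC replicate 2, OPC replicate 3 or SSC replicate 2 so was that of +/1013 (4.13, 4.09 and 3.99, adjusted p = 0.0795, 0.0816 and 0.0565). In 1013/1013 the log2 fold change was 4.05 to 6.65 without each of the 5 libraries in turn. The 1013/1013 call ended when only the 2 groups compared were fitted (5.58, adjusted p = 0.0690, edgeR). Angptl7 lies within Mtor, on the opposite strand and with 0 shared exon bases, and Mtor was at 5.37 to 32.3 CPM. In WT OPC replicates 2 and 3, Mtor had 8.82 and 20.1 CPM, a level like that of Angptl7. As no setting for strand was given, reads from Mtor introns over Angptl7 could not be told apart from Angptl7 there, and their part in the OPC levels was not tested.

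Cilp (ENSMUSG00000042254, chr9:65265180-65280605, plus strand), a matrix protein of cartilage and tendon, had 1869, 1583 and 597 CPM in WT OPCs and 10248.5, 5301 and 5845 CPM in WT SSCs, without overlap. It was 5.28-fold higher in WT SSCs (log2 fold change 2.40 ± 0.61, adjusted p = 0.0203, edgeR). Leaving out WT OPC replicate 2, WT OPC replicate 3 or WT SSC replicate 1 ended this call (log2 fold change 2.55, 2.06 and 2.05, adjusted p = 0.0551, 0.0693 and 0.0755). In +/1013, Cilp was at 1737, 1977 and 1316 CPM in OPCs and 3835, 5929 and 5537 CPM in SSCs, again without overlap, and was not called (1.61 ± 0.59, adjusted p = 0.0932). In 1013/1013 SSCs it was at 1269 and 8702 CPM, the first within and the second above the OPC range of 910.2 to 1885 CPM (1.97 ± 0.64, adjusted p = 0.0583). Without 1013/1013 SSC replicate 1 this difference was called (2.77, adjusted p = 0.0100), and without replicate 2 the log2 fold change was 0.05.

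Thbs2 (ENSMUSG00000023885, chr17:14665500-14694235, minus strand), a matricellular thrombospondin with a role in collagen fibre assembly, had 348, 275 and 222 CPM in WT OPCs and 606, 957 and 739.9 CPM in WT SSCs, without overlap. It was 2.73-fold higher in WT SSCs (log2 fold change 1.45 ± 0.38, adjusted p = 0.0262, edgeR), a call that ended without WT OPC replicate 2 or 3 or WT SSC replicate 2 or 3 (1.45, 1.31, 1.26 and 1.47, adjusted p = 0.0818, 0.0937, 0.0924 and 0.0562). The difference was 1.11 ± 0.38 in +/1013 (adjusted p = 0.0741) and 0.48 ± 0.42 in 1013/1013 (adjusted p = 0.449), where SSC replicate 1 lay within the OPC range at 218 CPM. Thbs4 (ENSMUSG00000021702, chr13:92751590-92794818, minus strand), the thrombospondin enriched in tendon, had log2 differences of 1.498 ± 0.68, 1.29 ± 0.68 and 1.43 ± 0.74 in WT, +/1013 and 1013/1013 (adjusted p = 0.178, 0.233 and 0.217). Its OPC libraries ranged from 296 to 2188 CPM and its SSC libraries from 1218 to 3923 CPM, so the cell types overlapped, and none of these 3 differences was called. Without WT OPC replicate 1, the highest of the WT OPC libraries for Thbs4 at 1673 CPM, the WT difference was called (2.59, adjusted p = 0.0275, and up to 0.378 without the other libraries).

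Tnc (ENSMUSG00000028364, chr4:63959785-64047015, minus strand), an anti-adhesive glycoprotein of tendon, ligament and periosteum, went the other way. OPC libraries had 1082, 493 and 648 CPM in WT, 996, 775 and 589.5 CPM in +/1013 and 336, 915 and 554 CPM in 1013/1013. SSC libraries had 209.8, 644 and 281 CPM in WT, 88.8, 127 and 121 CPM in +/1013 and 23.3 and 103 CPM in 1013/1013. OPC and SSC libraries overlapped in WT, where 1 SSC library lay within the OPC range, and were apart in both mutant genotypes. Tnc was lower in SSCs by 7.01-fold in +/1013 (log2 fold change -2.81 ± 0.58, adjusted p = 0.00624, edgeR) and by 9.52-fold in 1013/1013 (-3.25 ± 0.70, adjusted p = 0.00831). In WT the difference was -0.97 ± 0.55 (adjusted p = 0.271). The +/1013 call held without each of the 6 libraries in turn (adjusted p = 0.0108 to 0.0347). The 1013/1013 call ended without SSC replicate 1 (-2.54), and also when only the 2 groups compared were fitted (-3.25, adjusted p = 0.104, edgeR).

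Of the transcription factors, Mkx (ENSMUSG00000061013), a homeobox gene of the Iroquois-related class, had 15.3, 9.16 and 11.7 CPM in WT OPCs, 13.0, 13.6 and 8.34 CPM in +/1013 and 7.37, 10.7 and 6.14 CPM in 1013/1013. SSC libraries had 24.1, 21.9 and 19.9 CPM in WT, 25.6, 40.4 and 21.2 CPM in +/1013 and 9.88 and 26.1 CPM in 1013/1013. Cell types did not overlap in WT and +/1013, and did in 1013/1013. Mkx was 2.49-fold higher in +/1013 SSCs than in +/1013 OPCs (log2 fold change 1.32 ± 0.38, adjusted p = 0.0370, edgeR), and this call held only without SSC replicate 3 among the 6 libraries left out in turn (adjusted p = 0.0378 to 0.152). The differences in WT (0.86 ± 0.38, adjusted p = 0.162) and in 1013/1013 (1.16 ± 0.41, adjusted p = 0.0842) were not called. Without 1013/1013 SSC replicate 1 the latter was (1.70, adjusted p = 0.0322, and up to 0.598 without the other libraries).

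Scx (ENSMUSG00000034161, chr15:76457452-76459458, plus strand) was at 11.6 to 43.6 CPM in OPCs and 22.3 to 46.9 CPM in SSCs. Its log2 differences of 0.70 ± 0.44, 0.40 ± 0.44 and 1.02 ± 0.48 in WT, +/1013 and 1013/1013 were not called (adjusted p = 0.324, 0.595 and 0.180, edgeR). Scx lies wholly within Bop1, a ribosome biogenesis gene on the opposite strand, with 0 shared exon bases. Bop1 was at 34.9 to 93.9 CPM, and as no setting for strand was given, reads from its introns over Scx could not be told apart from Scx.

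Tnmd (ENSMUSG00000031250, chrX:133850980-133865577, plus strand) and Postn (ENSMUSG00000027750, chr3:54361109-54391037, plus strand) overlapped between cell types in WT and +/1013. Tnmd spanned 65.4 to 305 CPM in OPCs and 67.0 to 459.8 CPM in SSCs, with log2 differences of -0.37 ± 0.55, 0.53 ± 0.55 and 0.37 ± 0.61 (adjusted p = 0.731, 0.572 and 0.723, edgeR). Postn had differences of -0.20 ± 0.48 in WT and -0.17 ± 0.48 in +/1013 (adjusted p = 0.847 and 0.883). In 1013/1013, Postn was at 407, 377 and 900.3 CPM in OPCs and at 182 and 149 CPM in SSCs, without overlap, and the difference was not called by edgeR (-1.76 ± 0.58, adjusted p = 0.0610). DESeq2 called it (adjusted p = 0.00808), and over the 8 alternative settings that left out no library the adjusted p was 0.00808 to 0.124.

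**Figure D2:**
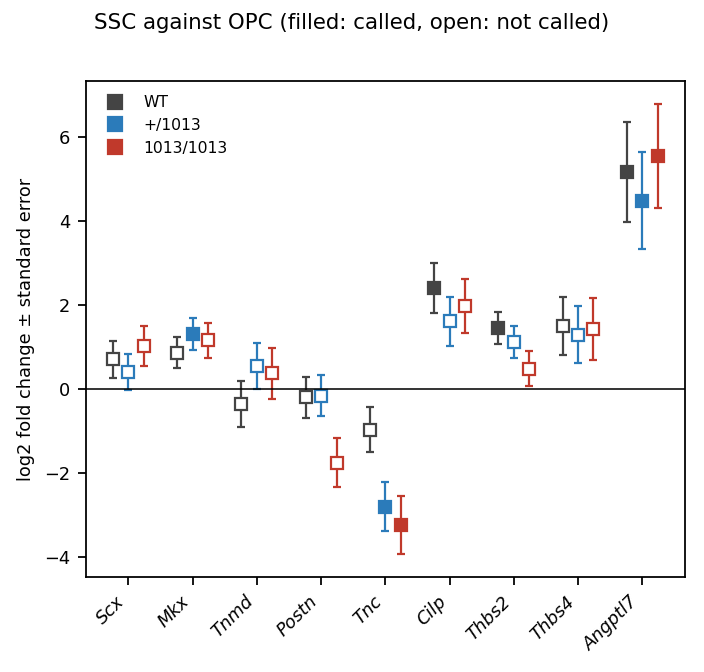
Log2 fold change of SSCs against OPCs for each gene (bars: standard error of edgeR's fit), by genotype. Filled squares were called and open squares were not. Angptl7 was called in all 3 genotypes at 4.49 to 5.56, and Tnc in +/1013 and 1013/1013 at -2.81 and -3.25.

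The second comparison asked whether the 1013 allele changed these genes in OPCs. None of the 9 genes was called in +/1013 or 1013/1013 OPCs, against 0% and 0.00617% of the 16207 genes tested. None had an unadjusted p under 0.05, against 2.04% and 3.38%. DESeq2 called none of the 8 genes to which it gave an adjusted p, against 0.358% and 0.259%, and gave none to Angptl7. No member separated from WT without overlap, against 5.28% and 7.61% of all genes. Log2 fold changes ran from -0.15 (Postn) to 1.28 (Angptl7) in +/1013 and from -0.59 (Mkx) to 0.43 (Angptl7) in 1013/1013, with SEs of 0.32 to 1.13.

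The spread within OPC groups was wide for several members. Thbs4 had 1673, 468 and 296 CPM in WT, 2188, 729.9 and 535 CPM in +/1013 and 1219, 894 and 532 CPM in 1013/1013, so each group held a value above and one below the mean of WT. For Thbs4 and Angptl7, replicate 1 was the highest library of each OPC group. +/1013 OPC replicate 1 had the highest level of 9 OPC libraries for 6 of the 9 genes (Scx, Tnmd, Postn, Thbs2, Thbs4 and Angptl7). Without it, the log2 fold change of Angptl7 was -0.01 in place of 1.28, that of Thbs4 -0.35 in place of 0.50 and that of Scx -0.47 in place of 0.19. WT OPC replicate 3, which held the most leukocyte marker counts, was lowest for Tnmd, Cilp, Thbs4 and Angptl7. Without that library no member was called either.

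The third comparison was between mutant and WT SSCs, and both mutant groups were set against the same 3 WT libraries. No member was called by edgeR in +/1013 or 1013/1013, against 0.0736% and 0% of the 17659 genes tested. Unadjusted p-values under 0.05 were obtained for Tnmd and Tnc in +/1013 and for Postn and Tnc in 1013/1013, 2 of 9 each, against 17.3% and 18.3% of all genes. DESeq2 called Tnc in +/1013, and Tnc and Postn in 1013/1013, against 7.1% and 8.95% of all genes. Without overlap with WT were Tnmd and Tnc in +/1013 (2 of 9, against 31.2% of all genes). In 1013/1013 these were Tnmd, Postn, Tnc and Thbs2 (4 of 9, against 40.7%). The share was below that of all genes in +/1013 and a little above it in 1013/1013. Log2 fold changes had a median of -0.11 in +/1013 and -0.29 in 1013/1013 over the 9 genes, and of -0.11 and -0.23 over all genes.

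Tnc, at 209.8, 644 and 281 CPM in WT SSCs, was at 88.8, 127 and 121 CPM in +/1013 and 23.3 and 103 CPM in 1013/1013 SSCs. Every mutant library lay below every WT library. The log2 fold change was -1.77 ± 0.59 in +/1013 (adjusted p = 0.206 by edgeR and 0.0241 by DESeq2) and -2.59 ± 0.72 in 1013/1013 (adjusted p = 0.158 and 0.00147). The 2 mutant libraries of 1013/1013 differed from each other, since the change was -4.04 without replicate 2 and -1.89 without replicate 1. The paralog Tnn, tenascin N, had 163 to 188 CPM in WT, 20.1 to 44.1 CPM in +/1013 and 2.35 to 24.6 CPM in 1013/1013 SSCs, and it was not called by edgeR either (-2.62 ± 0.74, adjusted p = 0.170, and -3.69 ± 0.92, adjusted p = 0.136). Tnxb, another tenascin, had -0.32 ± 0.49 in 1013/1013 (adjusted p = 0.742).

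Postn had 664, 393 and 553 CPM in WT SSCs, 479.9, 778 and 233 CPM in +/1013 and 182 and 149 CPM in 1013/1013. The +/1013 libraries lay on both sides of WT (log2 fold change -0.13 ± 0.42, adjusted p = 0.930, edgeR), and both 1013/1013 libraries lay below WT (-1.68 ± 0.50, adjusted p = 0.170, and 0.0101 by DESeq2). Without either 1013/1013 library the change stayed negative (-1.86 without replicate 1 and -1.58 without replicate 2). Its relative Tgfbi, which shares the fasciclin domains of periostin, had 0.82 ± 0.23 in 1013/1013 (adjusted p = 0.155 by edgeR).

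Tnmd had 110.0, 114 and 67.0 CPM in WT SSCs, 185, 459.8 and 157 CPM in +/1013 and 124 and 304 CPM in 1013/1013. The mutant libraries were all above WT, the lowest of them by a small margin. Log2 fold changes were 1.45 ± 0.50 in +/1013 (adjusted p = 0.215, edgeR) and 1.15 ± 0.54 in 1013/1013 (adjusted p = 0.305), and DESeq2 did not call them either. Without 1013/1013 SSC replicate 2 the latter was 0.34.

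For the other members the genotypes of SSCs gave no call in either tool. Thbs2 was at 467, 682 and 801 CPM in +/1013 and at 218 and 598 CPM in 1013/1013 SSCs, the latter below the WT range of 606 to 957 CPM (log2 fold change -0.91 ± 0.44, adjusted p = 0.315, edgeR). Cilp (-0.52 ± 0.70), Mkx (-0.29 ± 0.43), Scx (-0.02 ± 0.39), Thbs4 (0.06 ± 0.51) and Angptl7 (0.82 ± 0.69) in 1013/1013 SSCs had libraries that overlapped the WT range. In +/1013 SSCs, these 6 genes lay between -0.50 ± 0.62 (Cilp) and 0.59 ± 0.63 (Angptl7).

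1013/1013 SSC replicate 1 had the lowest level of the 8 SSC libraries for 6 of the 9 genes (Mkx, Tnc, Cilp, Thbs2, Thbs4 and Angptl7). With replicate 1 as the only 1013/1013 library, log2 fold changes against WT were -4.04 for Tnc, -2.51 for Cilp and -1.84 for Thbs2. With replicate 2 alone, Tnc was at -1.89 and Thbs2 at -0.38. Cilp was then 0.27, Mkx 0.23 and Scx 0.39 above WT on the log2 scale. Thbs4 was -0.93 with replicate 1 alone and 0.61 with replicate 2 alone, and Angptl7 was -0.76 and 1.54, so the direction for these 5 genes depended on which library was kept.

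Other measures moved with genotype in the SSC libraries. The summed level of the 8 chondrocyte markers was 603 to 4005 CPM in WT, 29.5 to 154 CPM in +/1013 and 11.6 to 169 CPM in 1013/1013, without overlap with WT and with no marker at 0 in a whole group. The 3 sort markers summed to 804 to 1049 CPM in WT and to 1205 to 1942 CPM in the mutants. Itgav alone went the other way, at 49.5 to 59.7 CPM in WT, 17.8 to 35.8 CPM in +/1013 and 26.5 to 30.9 CPM in 1013/1013. Genes with a count numbered 21449 to 22599 in WT and 15748 to 19227 in the mutants, and reads on no gene made up 3.68% to 4.15% and 1.504% to 2.69%. The 8 osteoblast markers, at 2167 to 3909 CPM in WT and 2234 to 6042 CPM in the mutants, overlapped. The part of these in the levels of Tnc, Postn and Tnmd was not tested. As these are bulk samples, fewer cells of a type and less RNA per cell cannot be told apart.

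**Figure D3:**
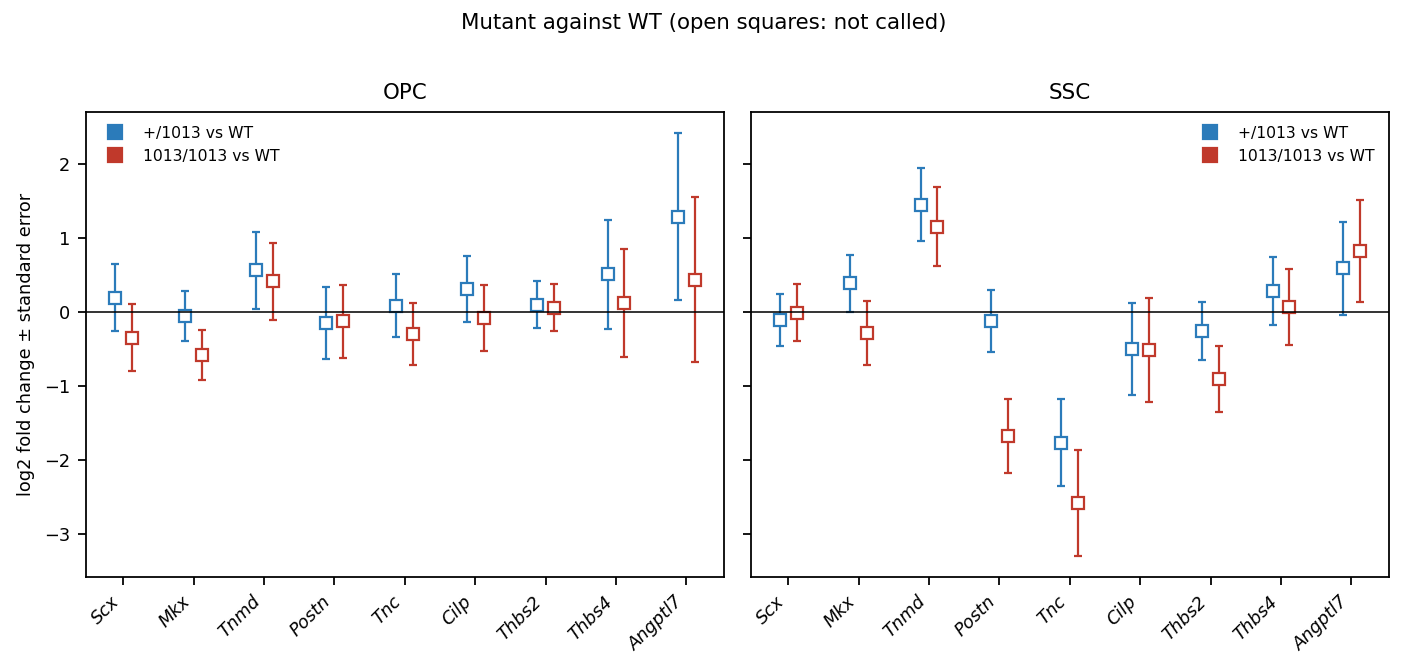
Log2 fold change against WT for each gene in OPCs (left) and SSCs (right), with bars for the standard error of edgeR's fit. All squares are open because no change was called. Tnc in SSCs lay at -1.77 in +/1013 and -2.59 in 1013/1013, and Postn at -1.68 in 1013/1013.

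**Figure D4:**
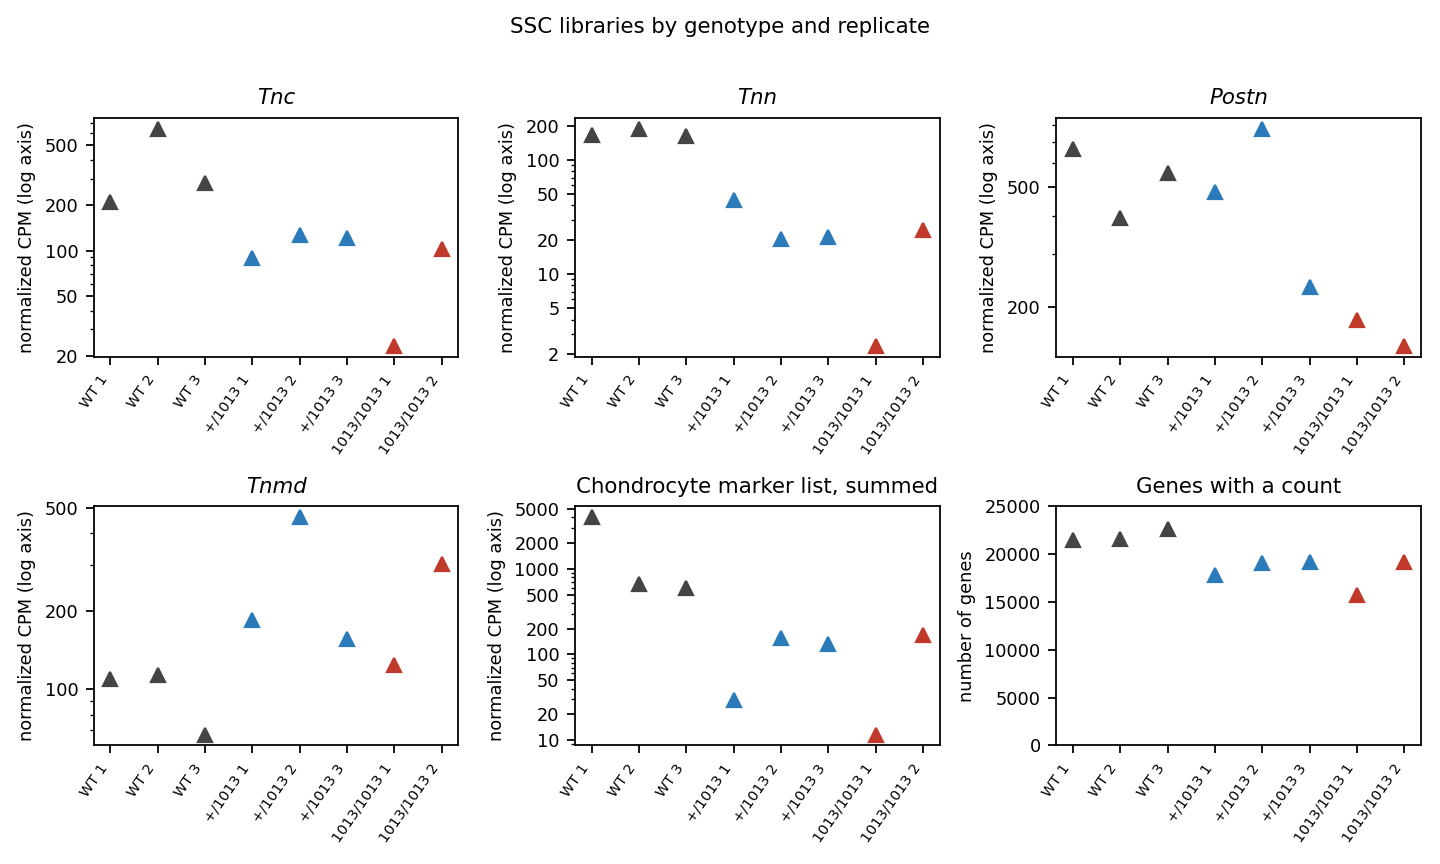
Levels of Tnc, its paralog Tnn, Postn, Tnmd and the summed chondrocyte markers (normalized CPM, log axes), and the number of genes with a count (linear axis), in each of the 8 SSC libraries, named by genotype and replicate. WT libraries were highest for Tnc, Tnn, the chondrocyte sum and genes with a count, and lowest for Tnmd.

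The last comparison tested whether the effect of a mutant genotype differed between SSCs and OPCs. No member was called for +/1013 or 1013/1013, against 0.084% and 0.153% of 20238 genes by edgeR, and none by DESeq2, against 1.95% and 5.17%. An unadjusted p under 0.05 was obtained for Tnc in both, 1 of 9, against 10.6% and 15% of all genes. For Tnc, the effect in SSCs minus that in OPCs was -1.84 ± 0.77 log2 units for +/1013 and -2.28 ± 0.84 for 1013/1013 (adjusted p = 0.435 and 0.252, edgeR). Without 1013/1013 SSC replicate 2 the second was -3.69, and over the 11 libraries left out in turn it ran from -3.69 to -1.58. The median over all genes of this difference was -0.14 and -0.39, and over the 9 genes -0.30 and -0.06.

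Other genes of the same tissues were taken from lists of known function. Of 24 further tendon genes, 23 were tested. In WT, 6 were higher in SSCs than in OPCs and 3 lower, in +/1013 5 and 3, and in 1013/1013 5 and 4, against 11.4%, 12.5% and 13.1% of all genes called in either direction. Col14a1, a collagen of the fibril surface, had the largest change in WT (log2 fold change 6.24 ± 0.44, adjusted p = 1.71e-06, edgeR), and Clu, a secreted chaperone, had 3.05 ± 0.79 (adjusted p = 0.0229). Col22a1, a collagen of the muscle-tendon junction, was lower (-2.46 ± 0.56, adjusted p = 0.0118). The sheath and paratenon gene Tppp3 had 2.45 ± 0.49 (adjusted p = 0.00567). The median of the 23 was 0.24 in WT, -0.03 in +/1013 and -0.04 in 1013/1013, against 0.17, 0 and -0.20 for all genes.

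Of 12 further periosteal genes, 6 were higher and 2 lower in WT SSCs than in WT OPCs, and their median was 1.59 against 0.17 for all genes. In +/1013 the numbers were 4 and 2, and in 1013/1013 5 and 2. Of all genes, 11.4%, 12.5% and 13.1% were called in either direction in WT, +/1013 and 1013/1013. Mfap5, a microfibril protein, had 4.55 ± 0.89 (adjusted p = 0.00494, edgeR) and Fbn1, fibrillin, 2.92 ± 0.71 (adjusted p = 0.0163). Pdgfrb, a receptor of mural and perivascular cells, had 2.35 ± 0.58 (adjusted p = 0.0174). Fn1, fibronectin, rose from 1314 to 2582 CPM in WT OPCs to 8032 to 9369.5 CPM in WT SSCs (2.22 ± 0.41, adjusted p = 0.00357). Among 18 tested relatives of the 9 genes, 3 were higher and 2 lower in WT SSCs than in WT OPCs. The numbers were 2 and 5 in +/1013 and 3 and 5 in 1013/1013, against the same shares of all genes. Cnmd, Tnn and Thbs1 were called lower in both mutant genotypes and not in WT, and in the test of that difference edgeR called none of them and DESeq2 called Tnn in 1013/1013 (adjusted p = 0.00651, against 0.164 by edgeR). In WT, Tnxb had a log2 fold change of 4.66 ± 1.03 (adjusted p = 0.00990) and Angptl1 one of 2.46 ± 0.30 (adjusted p = 0.000216). Irx5, a homeobox gene of the Iroquois family, was lower (-3.49 ± 0.65, adjusted p = 0.00393). Irx6 was at 0.516 to 4.31 CPM in WT OPCs and had no count in the 3 WT SSC libraries.

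Of 9 receptors for thrombospondins, tenascins and periostin, 3 were higher in WT SSCs, namely the integrins Itga9 (log2 fold change 2.65 ± 0.52, adjusted p = 0.00512, edgeR) and Itgb5 (0.95 ± 0.28, adjusted p = 0.0438) and the endocytic receptor Lrp1 (2.23 ± 0.46, adjusted p = 0.00645), and none was lower. In +/1013 and 1013/1013, Itga9, Lrp1 and Cd47 were higher, and in 1013/1013 the integrin Itgav, one of the sort markers, was lower (-1.10 ± 0.33, adjusted p = 0.0457). Of 14 genes upstream of the tendon program, among them TGF-β ligands, receptors and SMADs, Tgfb1 alone was called in WT and was lower in SSCs (-1.56 ± 0.32, adjusted p = 0.00675). In both mutant genotypes Tgfb1 was again lower and Tgfb3 was higher (1.40 ± 0.35, adjusted p = 0.0181 in +/1013, and 1.75 ± 0.38, adjusted p = 0.00886 in 1013/1013), and in 1013/1013 Gdf7 was also called higher and Gdf6 lower. Over all genes, 11.4%, 12.5% and 13.1% were called in WT, +/1013 and 1013/1013. The upstream list was near these shares in WT and +/1013.

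Between genotypes, no gene of these 5 lists was called by edgeR in OPCs or SSCs. In +/1013 SSCs, unadjusted p-values under 0.05 were obtained for 8 of 23 tendon, 4 of 12 periosteal and 4 of 16 related genes, 2 of 9 receptors and 3 of 14 upstream genes, against 17.3% of all genes. DESeq2 called 4, 4, 4, 1 and 1 genes of these lists, against 7.1%. In 1013/1013 SSCs, the unadjusted numbers were 5, 5, 5, 3 and 4, against 18.3%, and DESeq2 called 2, 3, 4, 1 and 2, against 8.95%. In OPCs, DESeq2 called 1 gene of the lists, Tnr, in each mutant genotype. Tnr had no count in WT OPCs, and in each mutant group it ran from 0 to a level above the floor. It was at 0 to 2.20 CPM, with a median of 1.05, in +/1013 OPCs and at 0 to 1.54 CPM, with a median of 0, in 1013/1013 OPCs. The genes with the highest levels in the tendon list, Dcn and Col3a1, had 1.08 ± 0.33 (adjusted p = 0.176 by edgeR) and -0.69 ± 0.41 (adjusted p = 0.379) in 1013/1013 SSCs. In the periosteal list, Fn1 was at 1654 to 3465 CPM in +/1013 and 2054 to 2529.5 CPM in 1013/1013 SSCs, below all WT SSC libraries (-1.94 ± 0.33, adjusted p = 0.0885, and -1.92 ± 0.39, adjusted p = 0.106). Lox, a collagen cross-linking enzyme, had -0.27 ± 0.62 in 1013/1013 SSCs. Of the relatives, Comp (thrombospondin 5) had 0.75 ± 0.66 and Cnmd, the paralog of Tnmd, -2.28 ± 1.52. Of the other lists, Lrp1 had -0.24 ± 0.45, Itgb1 0.27 ± 0.23, Ccn2 -0.23 ± 0.58 and Tgfbr2 0.15 ± 0.34.

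Across the libraries of a cell type, the 9 genes tended to vary in the same direction. Of the 36 pairs of members, 33 had a positive Pearson correlation of log2 CPM in both the 9 OPC and the 8 SSC libraries, with a median r of 0.45 and 0.59. The share of positive pairs among other genes was not computed. Whether this tendency is particular to the members therefore cannot be said. Thbs4 and Angptl7 had r of 0.94 in OPCs and 0.77 in SSCs, and Tnmd and Thbs4 0.91 and 0.70. The pair of Tnmd and Tnc, at 0.46 and -0.29, had opposite signs. These values describe pools of 3 genotypes that also differed in depth and in the marker sums given above.

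Among the 11874 genes whose mean was 1 CPM or more in OPCs and also in SSCs, the genes most like each member were found by the smaller of these 2 correlations. Being the best of 11874 genes over 9 and 8 libraries, these values are high by selection, and they were not tested. Tnc was most like Fgfr2, a fibroblast growth factor receptor (r of 0.90 in 9 OPC and 0.93 in 8 SSC libraries). Thbs4 was most like Arid5b (0.90 and 0.93) and, like Angptl7, had Tmem255a among its first 2 genes (0.93 and 0.88 for Thbs4, 0.93 and 0.91 for Angptl7). Angptl7 was next most like Cav1, the caveolar protein (0.91 and 0.88). For Tnmd these genes were Slc6a6 (0.88 and 0.90) and Ndrg1 (0.88 and 0.95), for Scx Pdlim4 (0.86 and 0.82) and Crip2 (0.81 and 0.78), and for Mkx Taf1b (0.88 and 0.89) and Dusp3 (0.83 and 0.94). Postn, with Gm16575 at 0.75 and 0.85, had the weakest first match of the 9.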

How the data were processed

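Libraries were prepared by the authors with SMART-Seq v4 and Nextera XT from pools of sorted cells and sequenced as paired ends. The authors checked reads with FastQC, removed those under 50 bases, aligned them with STAR to mm10 and counted them per gene with HTSeq. The deposited values were raw counts per Ensembl gene. Tool versions, the annotation and the strand setting were not given in the sources used here. Rows that named no gene (such as reads on no feature) were left out of library sizes and tests.

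Counts were tested with edgeR (4.0.16, with limma 3.58.1, in R 4.3.3) by the quasi-likelihood test (legacy = TRUE in glmQLFit). Low genes were removed by filterByExpr, and normalization was by TMM. OPC and SSC libraries were fitted separately for genotype comparisons and all 17 libraries together for the others. P-values were adjusted by Benjamini-Hochberg over all genes tested, and a call required 1.5-fold change or more besides an adjusted p below 0.05. Symbols and coordinates were taken from GENCODE M21 (GRCm38), in which 55154 of 55335 identifiers matched. The test was also run on OPC counts simulated with the same spread for every gene. That setting does not cover the unequal spread of genes in the real libraries. Correlations used log2(CPM + 0.5).

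The members and lists were chosen with earlier results of these data known. The members were named in every comparison. Up to 4 called genes of each other list were named (largest change first), or the 2 genes of highest level where none was called. Some paralogs, overlapping genes and genes most like a member were also named. AC148004.2 shared 201 exon bases with Mkx, and 8030451A03Rik shared 176 with Tnc. Their highest levels in any library were 0.0524 and 0.680 CPM. Alternatives were DESeq2 (1.42.0), other normalizations, filters and sets of libraries, no fold threshold, the bias-adjusted test (legacy = FALSE), a replicate block and each library left out in turn.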

Additional observations from a re-analysis of the deposited data

How the results depend on the processing

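Of 1251 values of the 9 genes under an alternative, 1132 kept their direction and their side of the threshold, 75 changed sign (72 of them when a library was left out), 20 lost a call and 24 gained one. The main limits were 2 or 3 pools per group, the unequal 1013/1013 SSC libraries and marker sums that differed with group. The cause of the changes below was not tested, except that fits with fewer libraries have fewer degrees of freedom.

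With DESeq2's Wald test, 58 and 42 genes were called in +/1013 and 1013/1013 OPCs (0 and 1 by edgeR), 1253 and 1581 in +/1013 and 1013/1013 SSCs (13 and 0), 3748, 4189 and 4621 between SSCs and OPCs of WT, +/1013 and 1013/1013 (2308, 2521 and 2642), and 395 and 1047 for the difference of the +/1013 and 1013/1013 effects between cell types (17 and 31). Of the 9 genes it called 1 and 2 in mutant SSCs, and 5 between cell types in each mutant genotype.

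Deviations of samples with the same replicate number correlated at -0.27 to 0.27 over 40 pairs. With so few libraries per group, the deviations within a group are tied to each other. These correlations therefore cannot decide whether the replicate numbers pair the samples. With the replicate block, 0 genes were called in 1013/1013 OPCs and +/1013 SSCs, and 0 and 19 for the differences of effects. Thbs4 in 1013/1013 SSCs was then at -0.21, and no count of calls among the 9 genes changed.

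With only the 2 groups compared, 0 genes were called in 1013/1013 OPCs, 1 in +/1013 SSCs and 511 between 1013/1013 SSCs and OPCs, and of the 9 genes 5 were called between cell types in +/1013 and 0 in 1013/1013. With all 17 libraries in one fit, 1 and 2 genes were called in +/1013 and 1013/1013 OPCs, and 145 and 212 in +/1013 and 1013/1013 SSCs. With the 4 groups of a contrast, 0 were called for either difference of effects. DESeq2 size factors gave 0 calls in +/1013 SSCs and 0 for the +/1013 difference. Upper-quartile normalization gave 33 and 0, with Scx in 1013/1013 SSCs at 0.041 and Thbs4 in the 1013/1013 difference at 0.027. Without a filter, 0 genes were called in +/1013 SSCs, and 0 and 5 for the differences. Requiring 10 or more counts in each library gave 72 calls in +/1013 SSCs (13 with the usual filter) and 54 in 1013/1013 SSCs (0 with it), 59 for the 1013/1013 difference, and calls for 5 of the 9 genes between 1013/1013 SSCs and OPCs. The bias-adjusted test called 4 of the 9 there and 0 genes for the +/1013 difference.

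With each library left out in turn, log2 fold changes in +/1013 OPCs ranged from -0.47 to 0.53 (Scx), -0.22 to 0.16 (Mkx), -0.00105 to 1.03 (Tnmd), -0.72 to 0.13 (Postn), -0.14 to 0.47 (Tnc), -0.048 to 0.62 (Cilp), -0.13 to 0.29 (Thbs2), -0.35 to 1.60 (Thbs4) and -0.013 to 3.27 (Angptl7). In 1013/1013 OPCs 0 genes were called, and the ranges were -0.67 to 0.13 (Postn), -0.74 to 0.074 (Tnc), -0.48 to 0.22 (Cilp), -0.22 to 0.31 (Thbs2), -0.28 to 1.19 (Thbs4) and -0.64 to 2.39 (Angptl7). In +/1013 SSCs 0 genes were called, with -0.35 to 0.047 (Scx), -0.63 to 0.18 (Postn) and -0.044 to 0.58 (Thbs4). In 1013/1013 SSCs 0 to 2931 genes and 0 to 3 of the 9 were called, with -0.65 to 0.39 (Scx), -1.18 to 0.23 (Mkx), -2.51 to 0.27 (Cilp), -0.93 to 0.61 (Thbs4) and -0.76 to 1.54 (Angptl7).

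Between WT SSCs and OPCs 1321 to 2263 genes and 0 to 4 of the 9 were called, with -0.66 to 0.10 (Tnmd) and -0.38 to 0.068 (Postn). In +/1013 the numbers were 1469 to 2357 and 1 to 3, with -0.11 to 1.09 (Tnmd) and -0.64 to 0.39 (Postn), and in 1013/1013 1084 to 4036, with -0.37 to 0.87 (Tnmd) and -0.38 to 1.04 (Thbs2). For the +/1013 difference of effects 0 to 13 genes were called, with -0.65 to 0.35 (Scx), -0.44 to 0.58 (Postn), -1.30 to 0.62 (Thbs4) and -2.67 to 0.59 (Angptl7). For that of 1013/1013 0 to 1960 genes and 0 to 1 of the 9 were called, with -0.25 to 0.75 (Scx), -0.54 to 0.83 (Mkx), -0.018 to 1.24 (Tnmd), -2.37 to 0.37 (Cilp), -1.14 to 0.51 (Thbs4) and -1.58 to 1.46 (Angptl7).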
